A study of Mus musculus with 47 samples.

Results

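The cytosolic ribosomal protein genes were followed in small-intestinal crypts and villi of mice under 3 genotypes and 3 diets. The members were the probe sets (the short oligonucleotide sets that report 1 transcript region each) whose single gene symbol is that of a ribosomal protein, Rps or Rpl with a number, or Rplp0, Rplp2 or Rpsa. The rule found 105 probe sets for 49 genes, of 45101 probe sets and 18193 singly named genes on the array. Of the 49 genes, 23 have symbols of the small subunit (Rps) and 26 of the large subunit (Rpl). The subunit counts below follow the symbols, and so include Rps4l, which RefSeq annotates as a transcribed pseudogene, where it was tested. A further 110 probe sets carried several symbols with a ribosomal protein among them and were not counted as members, so some ribosomal protein genes are not analysed here. Of the 105 probe sets, 77 were measured on all 47 arrays, 21 on some arrays and 7 on none. A filter on low values (above the array's median on at least 3 arrays) left 88 probe sets and 46 genes. Rps16 and Rpl3l were blank on every array, and Rpl39l was measured on 1. Each other gene was represented by its probe set with the highest mean level. The members measured most weakly were Rps27, Rpl14, Rps25, Rpl12 and Rpl39, with mean log2 levels of 8.29 to 9.56 on 31 to 47 arrays.

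Total RNA of crypts and of villi from C57BL/6 mice was labelled and hybridised to Affymetrix arrays. In the genetic arm the mice were wild type, Apc1638N/+ (1 mutant copy of the tumour suppressor Apc) or p21-/- (no copy of the cell cycle inhibitor Cdkn1a), were 3 months old and ate the purified diet Ain76A. The diet arm held wild-type mice, 1 year old by their labels, which had eaten Ain76A or one of the Western-style diets NWD1 and NWD2 for 1 year after weaning. There were 12 groups of tissue and condition, of 4 arrays each but for NWD2 villi, which had 3. The labels do not say that replicates came from separate animals, so p-values measure the spread between these samples. For each gene that spread was 1 estimate over all 12 groups, so the diet comparisons also carry the spread of the genetic arm. Weights fitted per array, lower where an array deviated more, ran from 0.171 to 2.134 in the genetic arm. In the diet arm they ran from 0.345 to 8.242. Age and arm coincide.

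A ribosome is built from a small subunit, which reads the messenger RNA, and a large subunit, which joins amino acids, and each holds its own set of proteins around ribosomal RNA. Ribosomal protein messengers begin with a terminal oligopyrimidine tract, a C followed by a run of C and T bases, through which mTOR signalling controls their translation, and Myc is known to raise their transcription. The intestinal crypt holds the stem and dividing cells, and the villus holds cells that have left the cell cycle and absorb nutrients.

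The start regions of the members are shown first because the terminal oligopyrimidine tract is the sequence feature for which this family is known. RefSeq promoter sequences of the assembly GRCm38.p6 were found for 43 of the 49 genes. Each line gives 30 bases before and 15 bases after the annotated transcription start, and capitals mark a C followed by at least 5 further C or T bases found within 7 bases before to 13 bases after that start. The first 6 genes have some of the widest crypt to villus differences measured here, and the last 3 some of the narrowest. They are the genes with a single start in the table among the 8 widest and the 8 narrowest by rounded differences. Rplp2 ties there with Rpl37 at 1.63, and before rounding Rpl37 was the wider.
Rpsa, chr9:120127736-120127780, plus strand: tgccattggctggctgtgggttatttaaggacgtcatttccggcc
Rpl35, chr2:39005117-39005161, minus strand: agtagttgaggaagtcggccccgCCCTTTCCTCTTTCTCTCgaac
Rps18, chr17:33955651-33955695, minus strand: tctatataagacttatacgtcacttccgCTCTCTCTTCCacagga
Rps6, chr4:86857353-86857397, minus strand: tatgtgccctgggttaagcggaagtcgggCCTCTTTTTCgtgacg
Rps15, chr10:80292401-80292445, plus strand: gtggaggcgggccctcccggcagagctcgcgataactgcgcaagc
Rplp2, chr7:141447621-141447665, plus strand: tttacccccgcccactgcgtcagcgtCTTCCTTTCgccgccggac
Rps27, chr3:90213634-90213678, minus strand: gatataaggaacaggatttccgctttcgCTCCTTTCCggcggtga
Rpl7l1, chr17:46782642-46782686, minus strand: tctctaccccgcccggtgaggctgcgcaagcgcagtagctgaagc
Rpl7a, chr2:26910777-26910821, plus strand: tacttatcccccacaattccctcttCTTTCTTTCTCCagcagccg

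Such a run lay at a start of 21 of the 43 member genes (48.8%) and of 4560 of 26982 other genes in the table (16.9%). The letters CCGGAAG, searched on both strands over 250 bases before to 50 after the start, lay at 21 member genes (48.8%) and at 9.87% of the other genes. Medians of the crypt to villus difference with and without each feature are given as a description, and they were not tested. The median log2 difference was 1.45 over 17 tested members with the pyrimidine run and 1.24 over 19 without it, and it was 1.29 and 1.32 over 18 members each with and without CCGGAAG. These matches describe letters in fixed windows around annotated starts. Of the genes shown, Rpl35, Rps18, Rps6, Rplp2, Rps27 and Rpl7a carry the run, and Rpsa, Rps15 and Rpl7l1 do not.

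Facts of the arrays that bear on these genes are few. Between 14758 and 23296 probe sets were measured per array, and precision is limited by having 3 or 4 arrays in a group. Enterocyte markers were lower in crypts in 20 of 22 genes tested and proliferation markers higher in 11 of 11, the directions that the tissue labels call for. A crypt-villus score, the mean of 8 proliferation markers minus the mean of 22 enterocyte markers, ran from -3.54 to 0.36 over crypt arrays and from -6.25 to -4.03 over villus arrays, with no overlap. By that score 7 arrays leaned over 1 SD toward the other tissue: wild-type crypts 2 and 4, NWD2 crypts 2, 3 and 4, Apc1638N/+ villi 3 and NWD2 villi 1. The 3-prime minus 5-prime signal of Gapdh, a measure of RNA quality, was -0.25 to 1.40 in the genetic arm and -0.54 to -0.24 in the diet arm. That of Actb was 0.97 to 3.30 and 0.25 to 1.06. These measures ranked the crypts of the genetic arm differently. Mean Gapdh values were 0.738 in wild type, 0.388 in Apc1638N/+ and 0.49 in p21-/-, and mean Actb values were 1.695, 2.508 and 2.554. Only Gapdh was used as a covariate.

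The main comparison asked how the members differ between crypts and villi. Ribosomal protein genes were higher in crypts almost as a block. In the mean of the 6 conditions, 40 of the 41 members measured on enough arrays were higher in crypts and none was lower, with a median log2 difference of 1.27, or 2.42-fold (limma, Benjamini-Hochberg adjusted p under 0.05, all arrays in 1 model). Over all 6161 genes tested, 36% were crypt-higher and the median was -0.03. In bulk tissue, fewer cells of a type and less RNA per cell cannot be told apart. Called separately in each condition, all crypt-higher members numbered 39 of 42 in wild type (21.9% of all genes), 41 of 44 in Apc1638N/+ (22.2%), 40 of 43 in p21-/- (24.1%), 42 of 45 on Ain76A at 1 year (29.1%), 42 of 45 on NWD1 (24.6%) and 37 of 43 on NWD2 (9.08%). No member was called villus-higher in any of the 6. On Ain76A, Rps4l was called villus-higher without crypt array 3 (-0.69, limma adjusted p 0.0253) and with array weights (-0.46, adjusted p 0.034). The count on NWD2 fell to 12 without villus array 3 and to 14 without villus array 2.

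**Figure D1:**
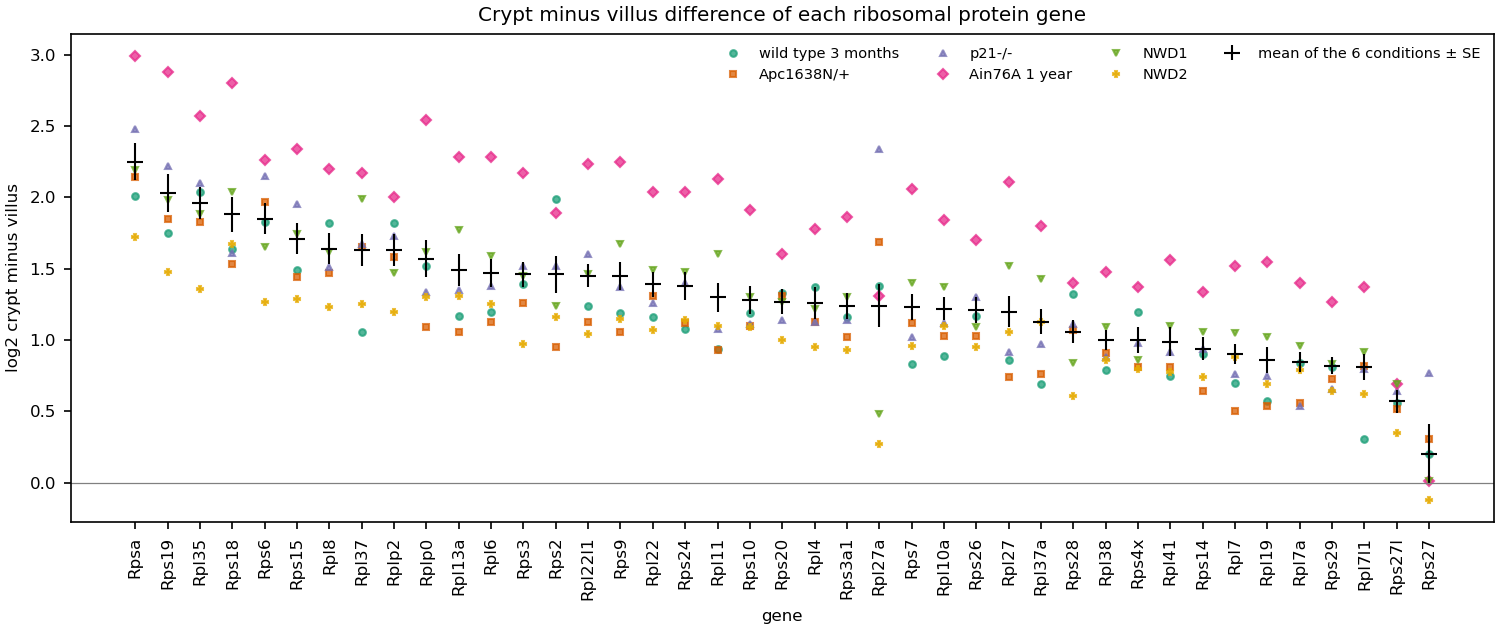
Log2 crypt minus villus difference for each of 41 ribosomal protein genes (horizontal axis, ordered by the mean difference). Coloured symbols are the 6 conditions and black bars the mean of the 6 with its SE. In the mean, the members other than Rps27 lie above 0 by several SE, from 0.57 for Rps27l to 2.25 for Rpsa.

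Among the small subunit proteins, 19 of 20 tested were crypt-higher, with a median of 1.28. Rpsa, the laminin receptor protein of the small subunit, had the widest difference in the mean of the conditions. Its normalized log2 signal was 15.14, 15.75, 15.64 and 15.80 on the wild-type crypt arrays and 13.20, 12.87, 13.61 and 14.59 on the villus arrays. Over all conditions its crypts ran from 14.26 (median 15.71) to 16.41 and its villi from 12.15 (median 13.24) to 14.59. The lowest crypt array of Rpsa, NWD2 crypt 3, thus lay below its highest villus array. The log2 difference was 2.25 ± 0.13 (SE), or 4.77-fold, with an adjusted p of 2.86e-18 by limma.

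Rps19, mutated in some patients with Diamond-Blackfan anaemia, was 12.77 to 14.50 in crypts (median 14.21) and 11.05 to 13.32 in villi (median 12.01). It was 2.03 ± 0.13 higher in crypts, or 4.07-fold. Rps18 was 1.88 ± 0.12 higher and Rps15 1.71 ± 0.11 higher. Rps6, the phosphorylation target of the S6 kinases downstream of mTOR, was 10.05 to 11.61 in crypts and 8.0 to 9.94 in villi, with no overlap of the 47 arrays and a difference of 1.85 ± 0.11. Rps3, which has a further role in DNA repair, was 13.83 to 14.74 in crypts and 12.27 to 13.83 in villi, a difference of 1.46 ± 0.09. Rps28, 15.44 to 15.94 in crypts and 13.76 to 15.50 in villi, was higher by 1.06 ± 0.08. At the narrow end lay Rps29, higher by 0.82 ± 0.06, and Rps14, higher by 0.94 ± 0.08 without overlap between tissues. Quantile normalization sets the brightest values of all arrays alike, and Rps29 read 16.53 on several crypt arrays. With arrays centred on their medians instead, Rps29 was higher by 0.93 and Rps14 by 1.22.

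All 21 large subunit members tested were crypt-higher, with a median of 1.26. Rpl12 was measured on too few arrays for the mean of the conditions. Its difference was wider than that of Rpsa on Ain76A (3.19 beside 2.99) and on NWD1 (2.32 beside 2.19). Rpl35, near the exit of the peptide tunnel, was 13.77 to 15.34 in crypts (median 14.72) and 11.63 to 13.71 in villi (median 12.89), so every crypt array lay above every villus array. Its difference was 1.96 ± 0.11, or 3.90-fold. Rpl8 was higher by 1.64 ± 0.11 and Rpl37 by 1.63 ± 0.11. Rpl11, which binds Mdm2 when ribosome assembly is disturbed, was 13.30 to 14.57 in crypts and 12.10 to 13.60 in villi, a difference of 1.30 ± 0.10. Rpl7a was higher by 0.85 ± 0.07, Rpl19 by 0.86 ± 0.09 and Rpl7 by 0.90 ± 0.07. The stalk proteins Rplp0 and Rplp2, which recruit the translation factors that use GTP, were higher by 1.57 ± 0.13 and 1.63 ± 0.11. Rplp0 was 14.52 to 16.16 in crypts and 13.07 to 15.13 in villi.

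In total 8 members had their lowest crypt array above their highest villus array over the 47 arrays: Rps6, Rps14, Rps18, Rps20, Rpl8, Rpl10a, Rpl22l1 and Rpl35. They are 8 of 41, where 1.25% of all genes tested had this pattern. Rps20 and Rpl10a are named for it after their values were seen.

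Members with a paralogue gave an uneven picture. Rps27 was the member that did not pass in the mean of the conditions, with 0.20 ± 0.21 and an adjusted p of 0.399 by limma. Its only probe set, which measured weakly, ran from 6.70 to 9.91 in crypts and from 7.26 to 9.38 in villi, and on wild-type crypts alone it read 6.95, 9.11, 9.35 and 9.91. Its crypt and villus values overlapped in every condition. Rps27l, the Rps27-like protein that p53 is known to induce, was called, but with the second narrowest difference, 0.57 ± 0.08. All 3 of its probe sets lay between 0.52 and 0.57. Rps27l was 13.10 to 13.94 in crypts and 12.24 to 13.59 in villi.

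Rpl22 and its paralogue Rpl22l1 both passed. Rpl22 was higher in crypts by 1.39 ± 0.09 and Rpl22l1 by 1.45 ± 0.08. Rpl7 and Rpl7l1 were higher by 0.90 ± 0.07 and 0.81 ± 0.09. Rpl7l1 was not called in wild type, at 0.31 ± 0.23, nor on NWD2, at 0.62 ± 0.24. Rps4x, the X-linked small subunit protein, was higher by 1.00 ± 0.09. Rps4l, its relative that RefSeq annotates as a transcribed pseudogene, was measured on too few arrays for the mean of the conditions. In wild type, Apc1638N/+, p21-/- and Ain76A mice its differences were 0.37, -0.02, -0.22 and -0.48, with a SE of 0.25 each, and none was called.

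Other members that missed a call in single conditions were Rpl39, in all 5 conditions in which it could be tested (-0.36 to 0.62), Rpl27a on NWD1 (0.48 ± 0.36) and NWD2 (0.27 ± 0.39), and Rps25 and Rps27l on NWD2 (0.44 ± 0.28 and 0.35 ± 0.22). Rpl27a, named after its values were seen, had been called at 2.34 ± 0.36 in p21-/- mice.

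**Figure D2:**
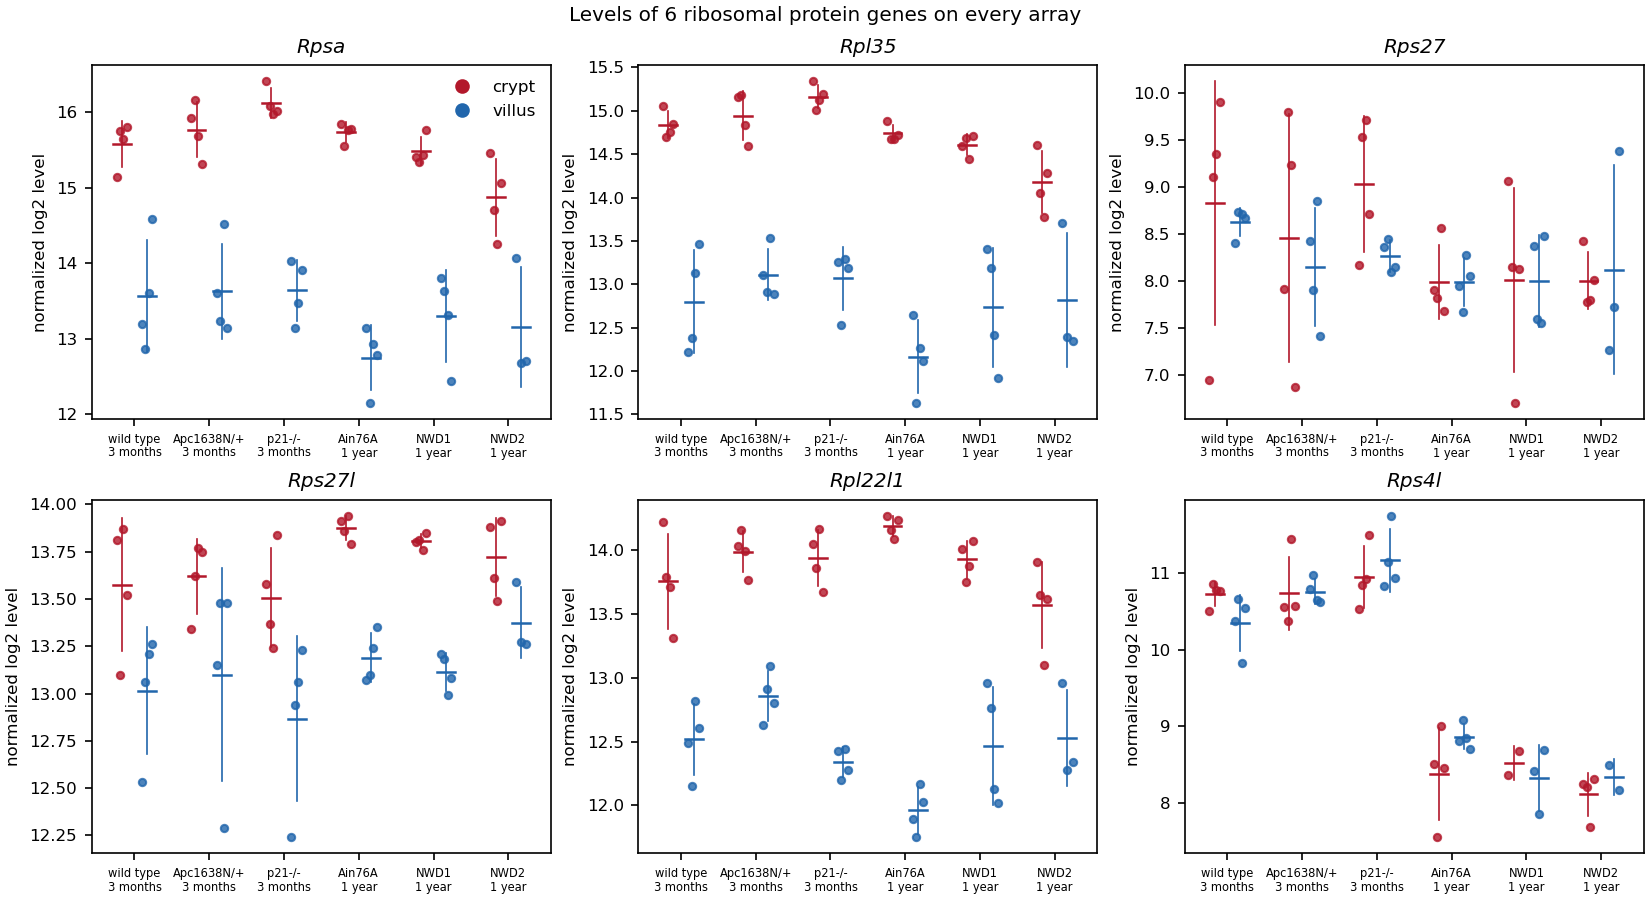
Normalized log2 level (vertical axis) of 6 members on every array, by condition (horizontal axis), with crypts in red and villi in blue; bars are the group mean and SD. Rpsa and Rpl35 separate the tissues in each condition, Rps27 does not, and Rps4l separates the arms of the study, at 9.83 or above at 3 months and 9.08 or below at 1 year.

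Across conditions the members kept a related order. Over 41 members the Spearman correlation of the crypt minus villus differences ranged from 0.56 to 0.96 over the 15 pairs of conditions, with a median of 0.72. It is a correlation across genes, which are not independent, and each condition used its own arrays. Among these 41, Rpsa ranked first or second in each condition, Rpl35 within the first 5 and Rps27l 39th or 40th. Rps27 ranked between 36th and 41st.

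Each probe set was also tested alone, and 77 of the 78 tested were crypt-higher with none lower. For 19 genes with several tested probe sets, none had probe sets called in opposite directions in the mean of the conditions, and the widest range was that of Rps10 (named for it after its values were seen), 1.28 to 2.80 over 5 probe sets. In wild type alone, 1 probe set of Rpl37a was called villus-higher at -1.24 ± 0.42 (limma adjusted p 0.0141), while the probe set that represents Rpl37a was higher in crypts by 0.69. Ribosomal proteins have many processed copies in the genome, and 71 of the 105 probe sets carry a name ending that marks a possible match to more than 1 transcript. Signal from such copies cannot be told apart from the genes here. With these probe sets left out, 10 of 11 members tested were crypt-higher in the mean of the conditions and none was lower.

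On each array the mean level of the 41 members was taken. It was 13.98 to 14.73 on 24 crypt arrays and 12.48 to 13.90 on 23 villus arrays, with no overlap. As a share of the summed deposited signal, in which a scaling factor per array cancels, all member probe sets took 3.66% to 7.96% on crypt arrays (mean 6.16%) and 1.497% to 3.45% on villus arrays (mean 2.32%). The shares did not overlap either, although the margin between NWD2 crypt 3 and NWD2 villus 1 was small. Among crypts the group means ran from Ain76A (14.68 ± 0.03, SD, n = 4) through NWD1 (14.57 ± 0.06), p21-/- (14.53 ± 0.05), Apc1638N/+ (14.47 ± 0.17) and wild type (14.38 ± 0.18) to NWD2 (14.30 ± 0.25). Among villi they ran from Apc1638N/+ (13.36 ± 0.28) through NWD2 (13.30 ± 0.52, n = 3), NWD1 (13.24 ± 0.45), p21-/- (13.23 ± 0.23) and wild type (13.21 ± 0.35) to Ain76A (12.80 ± 0.25). Neighbours in either order overlapped in their arrays. The order of the crypts depended on the scaling. The share is also taken over measured probe sets only, whose number differed between groups. By the share of summed signal p21-/- crypts led with 7.656% ± 0.216 (SD, n = 4), followed by Apc1638N/+ (7.001% ± 1.293), Ain76A (6.469% ± 0.743), NWD1 (5.611% ± 0.595), wild type (5.598% ± 0.486) and NWD2 (4.649% ± 0.925). The deposited mean level also put p21-/- (14.868) and Apc1638N/+ crypts (14.767) above Ain76A crypts (14.666). Ain76A villi were lowest by all 3 measures, with a share of 1.824% ± 0.249.

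**Figure D3:**
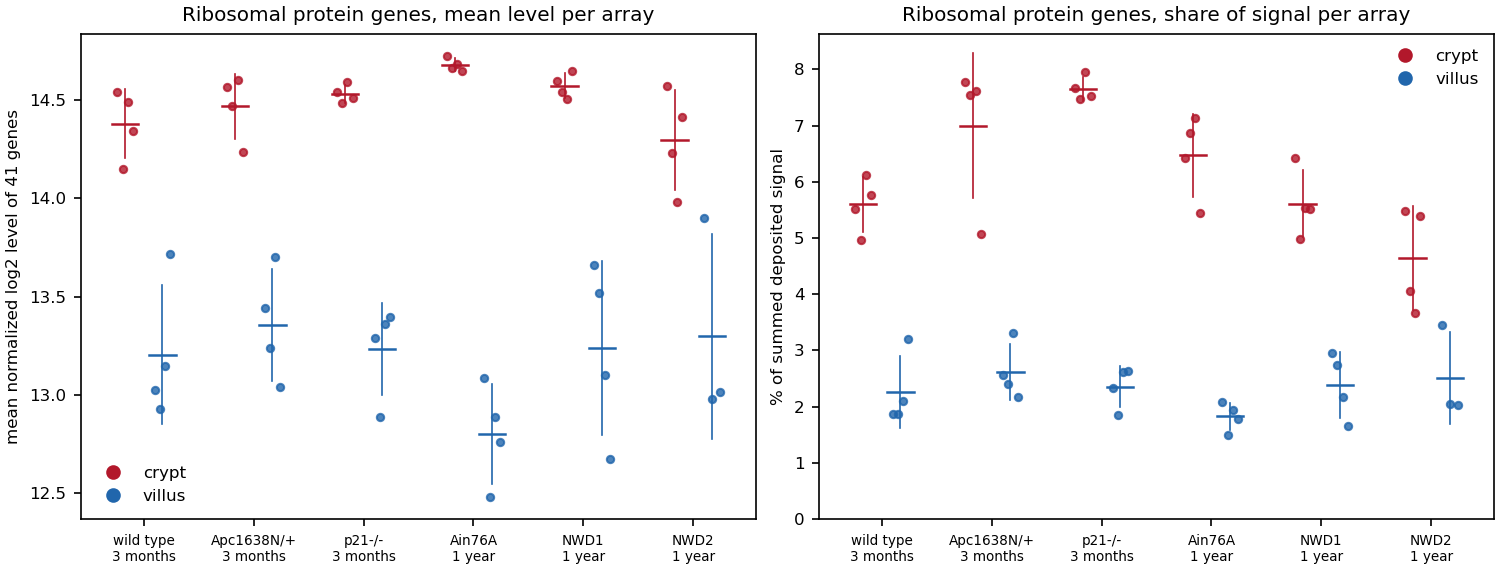
Left, mean normalized log2 level of 41 ribosomal protein genes on each array; right, the share of summed deposited signal, in percent, taken by the members. Points are arrays, bars the group mean and SD. Crypts (red, 3.66% to 7.96%) lie above villi (blue, 1.497% to 3.45%) in all conditions.

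The members' mean rose with the crypt-villus score of the array in crypts and in villi at 1 year, and less so in villi at 3 months. No member enters that score. Over 24 crypt arrays Pearson's r was 0.82 and Spearman's rho 0.75, with r 0.73 without the 2 arrays farthest from the median score. Over 23 villus arrays r was 0.75, rho 0.67 and r 0.63 without the 2 farthest. Within arms, r was 0.70 in crypts at 3 months (n = 12) and 0.91 at 1 year (n = 12), and 0.89 in villi at 1 year (n = 11). In villi at 3 months (n = 12) r was 0.40 and rho 0.20, and r was 0.23 without the 2 farthest arrays. The points share the normalization of their array and are given as a description. Without the 7 arrays that leaned toward the other tissue, 40 of 41 members were again crypt-higher in the mean of the conditions.

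**Figure D4:**
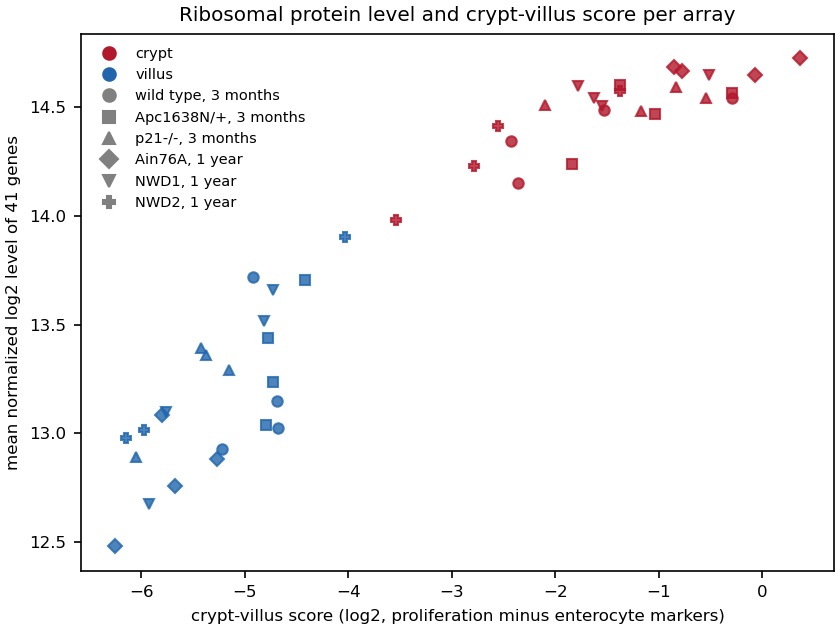
Mean normalized log2 level of 41 ribosomal protein genes (vertical axis) against the crypt-villus score of each array (horizontal axis). Each point is an array, coloured by tissue and shaped by condition. Over all arrays of a tissue r was 0.82 in crypts and 0.75 in villi, and in villi at 3 months alone it was 0.40.

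Other genes of the translation machinery, from lists chosen with the same results known, were mostly crypt-higher too. Of 20 translation factors and other oligopyrimidine messengers tested, 18 were crypt-higher and 1 lower, with a median of 0.98. Npm1, a nucleolar chaperone, was higher by 1.86 ± 0.11 and the elongation factor subunit Eef1b2 by 1.66 ± 0.10. Slc25a5, a mitochondrial carrier, was lower by a log2 difference of -0.59 ± 0.07, and Fau, which encodes a small subunit protein fused to a ubiquitin-like one, gave 0.10 ± 0.05 and was not called. Of 21 ribosome biogenesis genes, 19 were higher and 1 lower, with a median of 1.18, led by the box C/D component Nop56 at 3.34 ± 0.15. Eif6, which keeps the subunits apart, was the lower one at -0.72 ± 0.09. Of 69 mitochondrial ribosomal proteins, 62 were higher and none lower, with a median of 0.82. Of 11 genes in growth control, 4 were higher and 5 lower. Mxd1, an antagonist of Myc, was lower by -2.85 ± 0.16, and Larp1, which binds oligopyrimidine messengers, was higher by 0.71 ± 0.07.

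Markers of other cell types also differed between the tissues, and their part in the members' difference was not tested. All 3 Paneth cell markers tested were crypt-higher, 5 of 7 goblet markers were lower with 1 higher, 7 of 8 enteroendocrine markers were lower with 1 higher, and all 4 lymphocyte markers were lower. The 2 myeloid markers and 1 B and plasma cell marker tested were crypt-higher. No mesenchyme marker could be tested. The summed log2 signal of the lymphocyte markers was 11.664 to 15.373 on crypt arrays and 13.049 to 17.837 on villus arrays.

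The genetic comparisons asked whether Apc1638N/+ or p21-/- mice differ from wild type. No member was called in any of them. In Apc1638N/+ crypts 0 of 45 were called (0% of all genes) and 2 had an unadjusted p under 0.05, with a median of 0.06. That median was 0.36 with the deposited scaling and 0.47 with arrays centred on their medians, again with 0 calls. It was -0.03 with the crypt-villus score in the model. In Apc1638N/+ villi 0 of 43 were called (0.028%) and 0 had an unadjusted p under 0.05, with a median of 0.15. In p21-/- crypts 0 of 44 were called, where 4.27% of all genes were, and 5 had an unadjusted p under 0.05, with a median of 0.13. In that comparison 7 members were called higher with the deposited scaling, where the median was 0.35, and likewise 7 with arrays centred on their medians, where it was 0.59. With the crypt-villus score in the model the median was -0.02. The members' share of summed signal was 7.66%, 7.48%, 7.96% and 7.52% in p21-/- crypts and 5.52%, 4.97%, 6.13% and 5.77% in wild-type crypts, without overlap. The sum runs over measured probe sets only, of which p21-/- crypts had 14758 to 17315 and wild-type crypts 19034 to 22020. The part of this in the shares was not tested. Paneth markers were called higher in 3 of 7 and lymphocyte markers lower in 3 of 4 in the same comparison, and their part in the members' values was not tested. Leaving out wild-type crypt 4 gave 1 call and leaving out p21-/- crypt 4 gave 2. In p21-/- villi 0 of 43 were called (0.0419%) and 1 had an unadjusted p under 0.05, with a median of 0.01. The crypt to villus difference itself did not differ by a called amount in any member, with 0 of 42 for Apc1638N/+ (0%; 1 at an unadjusted p under 0.05) and 0 of 42 for p21-/- (1.4%; 0 at an unadjusted p under 0.05). Within a tissue both genotypes were set against the same wild-type arrays, and the comparisons of the tissue difference reuse the arrays of both tissues.

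The diet comparisons set NWD1 and NWD2 against Ain76A in mice of 1 year. On NWD1, 0 of 45 members were called in crypts (0%), none at an unadjusted p under 0.05, and the median was -0.11. In NWD1 villi 0 of 45 were called (0.0654%), 19 had an unadjusted p under 0.05 and 42 had a positive difference, with a median of 0.46. With array weights 31 members were called there. The members' mean level was 13.66, 13.52, 13.10 and 12.68 on NWD1 villi and 13.09, 12.48, 12.89 and 12.76 on Ain76A villi. NWD1 villi 1 and 2, the high ones, scored -4.73 and -4.82 on the crypt-villus score and the other NWD1 villi -5.76 and -5.93, beside -6.25 to -5.27 for Ain76A. Paneth markers were called higher in 3 of 5 in NWD1 villi, with a median of 2.43. Their summed log2 signal was 16.869 and 16.511 on NWD1 villi 1 and 2, 15.040 and 14.794 on the other NWD1 villi, and 12.144 to 14.358 on Ain76A villi. Their part in the members' values was not tested. The crypt to villus difference was called smaller in 0 of 44 members (0%), 6 of them at an unadjusted p under 0.05, with a median change of -0.56. With array weights 12 members were called for that change.

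On NWD2 2 of 46 members were called lower in crypts, both of the large subunit, and none higher. Of all 7723 genes tested, 343 were called lower and 496 higher, or 10.9% in either direction. The members' share of lower calls was thus close to that of all genes. Rpl12, part of the base of the stalk, read 9.87, 9.14, 8.97 and 9.13 in NWD2 crypts and 10.42, 10.44, 10.45 and 10.65 in Ain76A crypts. Its arrays did not overlap, and it was lower by a log2 difference of -1.21 ± 0.30 (limma adjusted p 0.0106). Rpl22l1 read 13.91, 13.65, 13.10 and 13.62 against 14.27, 14.16, 14.09 and 14.24, without overlap, a difference of -0.62 ± 0.19 (limma adjusted p 0.0313). Over 46 members the median was -0.37, 11 had an unadjusted p under 0.05 and 1 had a positive difference. NWD2 crypts scored -1.38, -2.79, -3.54 and -2.55 on the crypt-villus score and Ain76A crypts -0.85 to 0.36. Enterocyte markers were called higher in 15 of 22 and proliferation markers lower in 8 of 18 in NWD2 crypts. With that score in the model neither was called, and Rpl22l1 then differed by 0.11. The median of the members, -0.37 without the score, was then 0.22. No member was called without the 7 leaning arrays, which leaves 1 NWD2 crypt array taken to vary like the other groups, nor without NWD2 crypt 3 alone. It was 4 members without NWD2 crypt 1 and 1 member without any 1 of the other 6 arrays. With array weights, which reached 8.242 for NWD2 crypt 2, it was 36 members.

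In NWD2 villi 0 of 43 members were called (0.401% of all genes), 20 had an unadjusted p under 0.05 and 42 had a positive difference, with a median of 0.47. Without the 7 leaning arrays, NWD2 villus 1 among them, that median was 0.19. With array weights 4 members were called. The members' mean was 13.90, 12.98 and 13.01 on NWD2 villi, and NWD2 villus 1, the high array, had a score of -4.03 beside -6.15 and -5.97. In the same comparison all 7 lymphocyte markers tested were at an unadjusted p under 0.05, with a median of -1.26, and 5 of 11 enteroendocrine markers were, with a median of -0.86, but none was called. The summed log2 signal of the lymphocyte markers was 13.049 to 13.413 on NWD2 villi and 14.522 to 15.418 on Ain76A villi, and their part in the members' values was not tested. The crypt to villus difference was smaller on NWD2 in every one of 43 members, with a median change of -0.86 beside -0.01 over all genes. Of these, 35 had an unadjusted p under 0.05 and 1 was called, Rpl22l1, with a change of -1.19 ± 0.28 (limma adjusted p 0.0462; 0.646% of all genes called). The crypt minus villus difference of Rpl22l1 was 2.23 ± 0.19 on Ain76A and 1.04 ± 0.21 on NWD2. It was 8 members without NWD2 crypt 1, and none without NWD2 crypt 2, 3 or 4, Ain76A crypt 1, 2 or 4, Ain76A villus 1, 2 or 4, or NWD2 villus 1. With the 7 leaning arrays left out, which leaves 1 NWD2 crypt array, the median change of the members was -0.28. Same-numbered crypt and villus arrays deviated together in all 4 Ain76A pairs (correlations of 0.13 to 0.29) and all 3 NWD2 pairs (0.29 to 0.49). With the number as a block, 12 members were called smaller on NWD2. Within a tissue both diets were set against the same Ain76A arrays, and the comparisons of the tissue difference reuse the arrays of both tissues.

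Last, the crypt to villus difference was compared between Ain76A mice at 1 year and wild-type mice on the same diet at 3 months. It was larger at 1 year in 14 of 42 members and smaller in none, with a median change of 0.79, or 0.48 with the deposited scaling. Over all genes 12.2% were called in either direction and 6.4% as larger at 1 year, with a median of 0.03. The 14 comprised 11 of 21 large subunit and 3 of 21 small subunit members tested. The difference between subunits was not tested. Cell type markers changed in the same comparison. The crypt minus villus difference was called larger at 1 year in 7 of 10 enteroendocrine markers (median 2.60), 3 of 8 lymphocyte markers (median 1.85), 1 of 2 myeloid markers and 1 of 11 proliferation markers, and smaller in 11 of 22 enterocyte markers (median -1.27) and 1 of 7 goblet markers. Their part in the members' change was not tested.

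Rpl27 read 14.25, 12.79, 14.20 and 13.87 in crypts and 12.51, 12.57, 13.03 and 13.55 in villi at 3 months. At 1 year it read 14.60, 14.62, 14.52 and 14.56 in crypts and 12.70, 12.24, 12.56 and 12.35 in villi. The spread between arrays was visibly wider at 3 months, and the change in its difference was 1.25 ± 0.38 (limma adjusted p 0.0289). Rps7, which can also bind Mdm2, changed by 1.22 ± 0.31 (adjusted p 0.0112), with 14.30 to 15.31 in crypts and 13.42 to 14.55 in villi at 3 months and 15.22 to 15.66 and 13.12 to 13.62 at 1 year. Its tissues did not overlap at 1 year and did at 3 months. Rpl11 changed by 1.19 ± 0.35 and Rpl37a by 1.11 ± 0.29.

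With the replicate number as a block the count of 14 rose to 20, although no same-numbered wild-type pair correlated above 0.1. This count moved with single arrays. It was 3 without wild-type crypt 2 and 8 without wild-type crypt 4, 7 and 5 without wild-type villi 3 and 4, 9 without any 1 of Ain76A crypts 1, 2 and 3, and 4 and 7 without Ain76A villi 2 and 4. Without wild-type crypts 2 and 4 together it was 0, without the 7 leaning arrays it was 1, and it was 2 with the deposited scaling and 7 with the Gapdh measure of RNA quality in the model. Wild-type crypts 2 and 4 had Gapdh values of 1.40 and 0.96 and crypt-villus scores of -2.37 and -2.43, and wild-type crypts 1 and 3 had 0.01 and 0.58 and scores of -0.29 and -1.53. Ain76A crypts had -0.50 to -0.24 and scores of -0.85 to 0.36. Age, time on the diet and arm cannot be told apart.

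**Figure D5:**
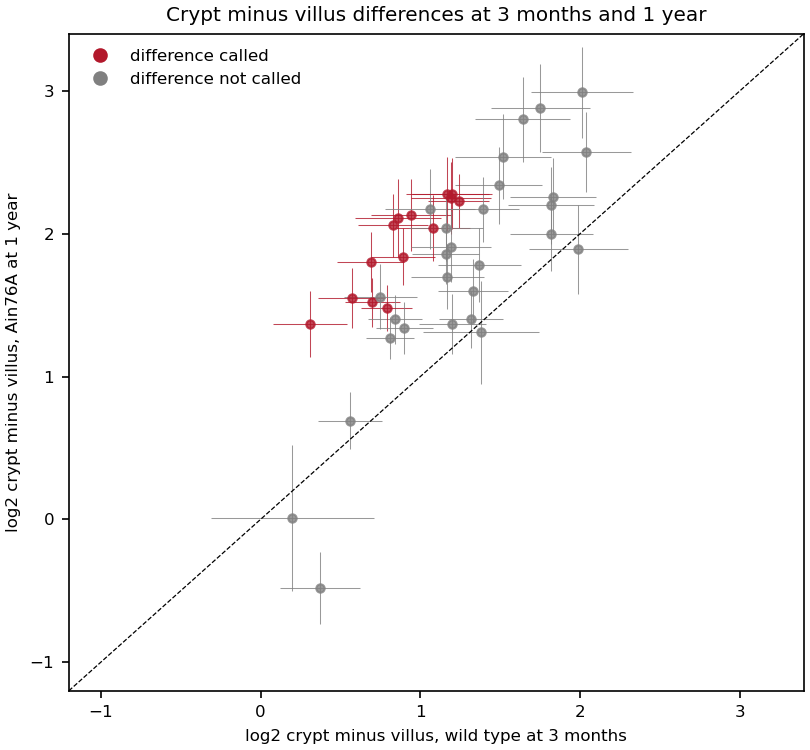
Log2 crypt minus villus difference of each of 42 members in wild-type mice at 3 months (horizontal axis) and in Ain76A mice at 1 year (vertical axis), with SE bars; the dashed line marks equal differences. Red points are the 14 members whose difference was called larger at 1 year, all above the line.

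Rps4l stood apart from the other members across the arms of the study. It was the only one of 44 members measured on at least 2 arrays of every group whose levels did not overlap between 3 months and 1 year; 0.0439% of all genes with that coverage did not. On all 24 arrays at 3 months it ran from 9.83 (median 10.77) to 11.75. On the 19 arrays at 1 year on which it was measured it ran from 7.55 (median 8.45) to 9.08, and on 4 it was blank. Crypts and villi shared this: at 3 months the means were 10.72 ± 0.15 and 10.35 ± 0.37 (SD, n = 4 each) in wild type, and on Ain76A at 1 year 8.38 ± 0.61 and 8.86 ± 0.16 (n = 4 each). With the deposited scaling the arms did not overlap either, at 9.65 to 11.84 and 7.52 to 9.03. Its relative Rps4x ran from 13.46 to 15.37 at 3 months and from 13.65 to 15.41 at 1 year. The pattern was noticed in the data and is given as a description, without a test. The gene lies at chr6:148354656-148355596 in GRCm38.p6. Age, arm and any difference between the stocks or runs of the arms cannot be told apart.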

How the data were processed

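The deposited values were log2 signals of the authors, 1 per probe set and array. The submitters' processing notes name GCOS, with no version. Of the cells, 55.2% were blank, for a reason not given, and were kept blank. Gene names came from GEO's platform annotation: 34945 probe sets had 1 symbol, 932 several and 9160 none. All 49 member symbols were found in RefSeq (GRCm38.p6).

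Arrays were quantile normalized (R 4.3.3) on the 8350 probe sets measured on all 47 arrays, since trimmed means differed by up to 1.46 times, and other values were interpolated. Each gene was represented by its probe set with the highest mean among those above the array median on at least 3 arrays, which gave 8224 genes. limma 3.58.1 fitted the 12 groups in 1 model with a trended prior variance, and Benjamini-Hochberg adjustment ran over all genes of each of 20 comparisons. A gene was tested when measured on at least 3 arrays of each group, and called at an adjusted p under 0.05. Levels are normalized log2 values and differences are log2 ± SE.

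The members, gene lists and alternatives were chosen with earlier results of these data known. Members named were the 8 widest and 8 narrowest tissue differences, the 5 highest and 5 lowest levels, called members (the 4 largest each way where over 8), paralogues, members with known further roles and members whose probe sets opposed each other; exceptions are marked. The procedure was tested on simulated data. Alternatives were other scalings, filters, probe set choices, array weights, blocks, covariates and left-out arrays. Same-numbered crypt and villus arrays were not treated as pairs, since the labels do not tie them. Their deviations did correlate above 0.1 in 15 of 23 pairs, and a fit with the number as a block was an alternative.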

Additional observations from a re-analysis of the deposited data

Results flagged for a closer look

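In each group of 4 measured arrays, the members' mean, their share of signal and 11 members were searched for a single array far from the other 3. Chance flags about 1 in 20 such groups. At most 143 were searched, since Rpl12 was blank on some arrays, and 3 were flagged. Apc1638N/+ crypt 4 gave the members 5.07% of its summed signal, beside 7.55% to 7.78% on the other 3. It had 21855 measured probe sets, beside 15418 to 18748 on the others. Rpl35 read 12.53 on p21-/- villus 2, beside 13.19 to 13.29. Rpl12 read 10.65 on Ain76A crypt 4, beside 10.42 to 10.45.

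The crypt to villus difference of 14 members was larger on Ain76A at 1 year than in wild type at 3 months by the test of that difference (limma). On the log2 scale the changes were 1.25 for Rpl27, 1.22 for Rps7, 1.19 for Rpl11, 1.11 for Rpl13a, 1.11 for Rpl37a, 1.08 for Rpl6, 1.06 for Rpl7l1, 1.06 for Rps9, 0.99 for Rpl22l1, 0.98 for Rpl19, 0.96 for Rps24, 0.95 for Rpl10a, 0.82 for Rpl7 and 0.69 for Rpl38. The difference of Rpl22l1 was smaller on NWD2 than on Ain76A, with a change of -1.19. Without the 7 arrays that leaned toward the other tissue, 1 member was called in the first comparison and none in the second.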

How the results depend on the processing

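In the crypt to villus comparisons no member was called villus-higher under the alternatives run, except 1 probe set of Rpl37a in wild type when all were tested on their own and Rps4l on Ain76A with array weights (-0.46) or without crypt array 3 (-0.69). The counts moved when the number of features tested changed: with all probe sets on their own they were 77 in the mean of the conditions, 73 in wild type (72 higher, 1 lower), 76 in Apc1638N/+, 74 in p21-/-, 83 on Ain76A, 82 on NWD1 and 70 on NWD2, and without probe sets that may match several transcripts 10, 8, 10, 9, 14, 14 and 7. With these 2 settings in that order, 3 and 1 members were called in NWD2 crypts, and 0 under both for the NWD2 change in tissue difference; all probe sets gave 1 in NWD2 villi, and there were 3 for the change at 1 year without such probe sets. Leaving out 1 array gave 12 to 38 calls on NWD2, 0 to 4 in NWD2 crypts, 0 to 8 for the NWD2 change, 0 to 2 in p21-/- crypts and 3 to 18 for the change at 1 year.

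The deposited scaling gave 7 calls in p21-/- crypts, 1 in NWD2 crypts, 3 for the NWD2 change and 2 for the change at 1 year; median centring gave 7 in p21-/- crypts and 1 for the p21-/- change. Deposited scaling moved the median of all genes from 0.03 to -0.13 for the change at 1 year, and from 0.01 to -0.16 in p21-/- crypts. Over all genes the calls then split 374 larger and 724 smaller at 1 year (440 and 396 before), 102 higher and 226 lower in p21-/- crypts (179 and 111), 50 and 215 for the p21-/- change (50 and 39), 662 and 138 in NWD2 crypts (496 and 343), 1845 and 1395 between wild-type tissues (1538 and 1859) and 930 and 363 between NWD2 tissues (679 and 469). Array weights, which reached 8.242 for NWD2 crypt 2, gave 31 calls in NWD1 villi, 36 in NWD2 crypts, 4 in NWD2 villi, 12 for the NWD1 change and 30 for the NWD2 change. Fitting only the groups compared gave 16 in NWD2 crypts and 13 for the NWD2 change, and a prior without trend gave 0 for the latter. The crypt-villus score in the model left 0 calls in NWD2 crypts, where Rpl22l1 turned to 0.11 and the median of the members to 0.22. With Gapdh as a covariate there were 2 for the NWD2 change and 7 for the change at 1 year. Without wild-type crypts 2 and 4 there was 1 in p21-/- crypts, 1 for the p21-/- change and 0 for the change at 1 year. Without the 7 leaning arrays, an alternative chosen after the data were seen, there were 1 in p21-/- crypts, 0 in NWD2 crypts, 0 for the NWD2 change and 1 for the change at 1 year. The cause of these moves was not tested.

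Replicate numbers paired crypts with villi in some conditions and not in others: same-numbered deviations correlated at -0.27 to 0.57, above 0.1 in 15 of 23 pairs, and 14 of the pairs correlated best with their own number. On Ain76A and NWD2 all pairs did both, and in wild type none did either. With the number as a replicate block, the NWD2 change rose to 12 calls, and 20 were called for the change at 1 year; the other comparisons stayed within 1.5 times their count.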

Other observations

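Rps4l shared its separation between the arms with 2 other genes of 6836, named here after their values were seen. Chd8, a chromatin remodeller, ran from 10.04 to 12.63 over 24 arrays at 3 months and from 8.89 to 9.96 over 23 at 1 year. Tmem165, a Golgi membrane protein, ran from 9.68 to 11.41 and from 11.50 to 12.55. The arms did not overlap in either gene with the deposited scaling. The 3 genes lie on chromosomes 6, 14 and 5.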
